A study of Mus musculus with 4 samples.

Results

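Calcium handling was followed in epidermal keratinocytes of newborn mice through 9 genes, taken from the deposited table by gene symbol out of 45803 symbols. The genes were the calmodulins Calm4, Calml3, Calm2 and Calm3, the calcium-sensing receptor Casr, the calcium pumps Atp2a2 and Atp2c1, and the store-operated entry genes Stim1 and Orai1. Of these, 8 reached at least 1 FPKM (sequenced fragments per kilobase of transcript, scaled to library depth) in at least 2 of the 4 libraries and were tested among 13817 genes; Casr did not. The cKO group was K14Cre,Mettl14F/F epidermis at postnatal day 0 and the control group was K14Cre,Mettl14F/+ epidermis of the same age, with 2 RNA-seq libraries each. Both groups carry Cre under the keratin 14 promoter, which is active in basal keratinocytes, and the control has 1 floxed allele of Mettl14 beside an intact allele, so it is a heterozygous control in Cre-expressing cells. The METTL14 protein works with METTL3 in the methyltransferase that places N6-methyladenosine (m6A) in RNA. Nothing in the labels tells whether the libraries of a group are different animals, and the p-values given here therefore reflect library-to-library spread, which may be technical.

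Keratinocytes sit in a gradient of extracellular calcium that rises toward the skin surface, and raised calcium makes cultured keratinocytes stop dividing, form cell junctions and differentiate. The calcium-sensing receptor reads the outside concentration and signals through phospholipase C, which releases calcium from the endoplasmic reticulum. STIM1 senses the emptied store and opens the plasma membrane channel ORAI1, while the pumps SERCA2 (Atp2a2) and SPCA1 (Atp2c1) refill the endoplasmic reticulum and the Golgi apparatus. Mutations of these pumps cause the human skin diseases Darier disease (ATP2A2) and Hailey-Hailey disease (ATP2C1). Calmodulins bind calcium through loops called EF hands and pass the signal to kinases, phosphatases and channels.

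The calmodulin-type genes are shown first by sequence, because copies of similar sequence could share reads. Each line gives the coding sequence of the first EF-hand loop, 36 bases for 12 residues at coding positions 61 to 96, from the GENCODE M21 transcript (GRCm38) with the highest level; capitals mark bases that differ from Calm2. Calm2 and Calm3 are known to encode the same protein. Calm5 is shown although it is outside the 9 genes, because it lies beside Calm4.
Calm4 (chromosome 13, plus strand): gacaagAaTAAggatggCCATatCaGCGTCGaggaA
Calml3 (chromosome 13, minus strand): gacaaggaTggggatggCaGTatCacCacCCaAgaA
Calm5 (chromosome 13, plus strand): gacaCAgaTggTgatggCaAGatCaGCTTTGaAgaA
Calm2 (chromosome 17, minus strand): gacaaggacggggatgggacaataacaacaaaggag
Calm3 (chromosome 7, minus strand): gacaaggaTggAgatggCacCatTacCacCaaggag
The loop of Calm3 differed from that of Calm2 at 7 bases, that of Calml3 at 10 bases, and those of Calm4 and Calm5 at 16 bases each. Over the whole coding sequence Calm2 was 82.7% identical to Calm3, 75.6% to Calml3 and 58.9% to Calm4. The longest stretch identical between the main transcripts was 17 bases for Calm2 and Calm3, 16 for Calm2 and Calml3, and 11 for Calm2 and Calm4. Between Calm4 and Calm5 it was 69 bases, so a read lying wholly inside that stretch could be assigned to either gene. A longer read would reach past it, and read length was not considered here. The first 12 positions of the PROSITE EF-hand pattern matched 4 loops each in Calml3, Calm2 and Calm3, 3 in Calm4 and 2 in Calm5. A loop that departs from the pattern is not counted.

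In a principal component analysis of 500 genes, the leading axis (65.9% of variance) set the libraries numbered 2 apart from those numbered 1, and the next axis (25.9%) set the genotypes apart. On the leading axis cKO also lay above the control of the same number, at -8.967 against -17.85 in number 1 and 18.94 against 7.875 in number 2. Implied depth was 16652174 and 25454658 reads in cKO libraries 1 and 2, and 17235832 and 23658546 in control. Mitochondrial reads made up 2.9% and 1.1% in cKO libraries 1 and 2, and 4.1% and 1.6% in control. Both measures thus differed by number within each genotype, and their part in the leading axis was not tested. Mettl14 measured 5.89 and 3.79 FPKM in cKO libraries 1 and 2, against 7.00 and 6.40 in control libraries 1 and 2, which did not pass the test (limma adjusted p = 0.959); the deleted part of the gene is not given in the labels. Keratinocyte markers were abundant, with Krt14 between 1435 and 2550 FPKM and Krt10 between 5382 and 15342, while Krt1 was listed at 0 in every library. Skeletal muscle markers were of interest because muscle also uses calcium pumps and entry genes. They summed to 2.44 and 0.81 FPKM in cKO and to 2.62 and 1.52 in control over 6 genes. Markers of leukocytes (5 genes) summed to 136 and 210 FPKM in cKO, against 239 and 293 in control; most of this was Cd74, and each of the 5 was lower in both cKO libraries. Those of fibroblasts (5 genes) summed to 82.4 and 89.2 in cKO and to 113 and 112 in control. This lower sum was mostly Dcn, at 34.0 and 40.3 in cKO and 55.7 and 68.2 in control, while Col3a1 overlapped (33.5 and 31.4 in cKO, 38.5 and 26.0 in control) and Col1a1 was slightly higher in cKO within each number. These libraries are bulk RNA, in which fewer cells of a type and less RNA per cell cannot be told apart.

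The 9 genes covered a wide range of levels, led by Calm4. Averaged over the 4 libraries, Calm4 came first at 2561 FPKM, followed by Calm2 at 141, Calml3 at 77.3, Atp2a2 at 70.8, Calm3 at 43.2, Atp2c1 at 38.8, Stim1 at 24.5, Orai1 at 11.5 and Casr at 0.13. Most neighbours in this order had ranges over the libraries that did not overlap. The exceptions were Calml3 beside Atp2a2, with Calml3 higher in 3 of 4 libraries, and Calm3 beside Atp2c1, with Calm3 higher in 2 of 4.

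**Figure D1:**
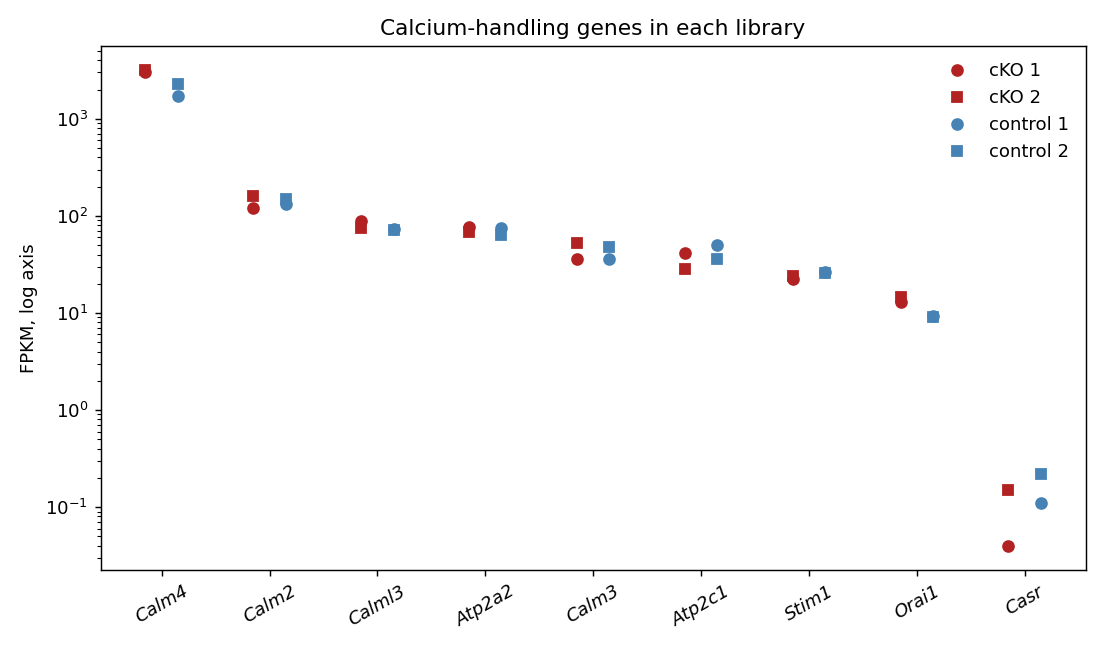
FPKM of the 9 genes (log axis) in each library, with cKO left of control and circles for replicate number 1, squares for number 2. Calm4 lies at 1737 or above in every library and Casr at 0.22 or below, with the other genes between.

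None of the 8 genes tested passed the test of cKO against control. The test was limma's moderated test on log2(FPKM + 1), on which differences of weakly expressed genes come out too small, with Benjamini-Hochberg adjustment over all 13817 genes; it called 0 genes in all (0%), while 686 (4.96%) had an unadjusted p under 0.05. By limma-voom on recovered reads the number called was 0 as well, with 818 at an unadjusted p under 0.05. Among the 8, Orai1 alone had an unadjusted p under 0.05 and was higher in cKO, where 3.29% of all genes tested had such a p with a higher value in cKO and 1.68% with a lower one. With the replicate number as a block, 0 of the 8 passed the adjusted test, and 900 (6.51%) of all genes did. Both cKO libraries lay above both control libraries for Calm4, Calml3 and Orai1, 3 of 8, where 16.2% of all genes tested did so. They lay below for Stim1, 1 of 8, against 16.6% of all genes. In either direction these were 4 of 8, beside 32.8% of all genes. The median log2 difference of the 8 was 0.07, beside -0.03 over all genes tested.

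**Figure D2:**
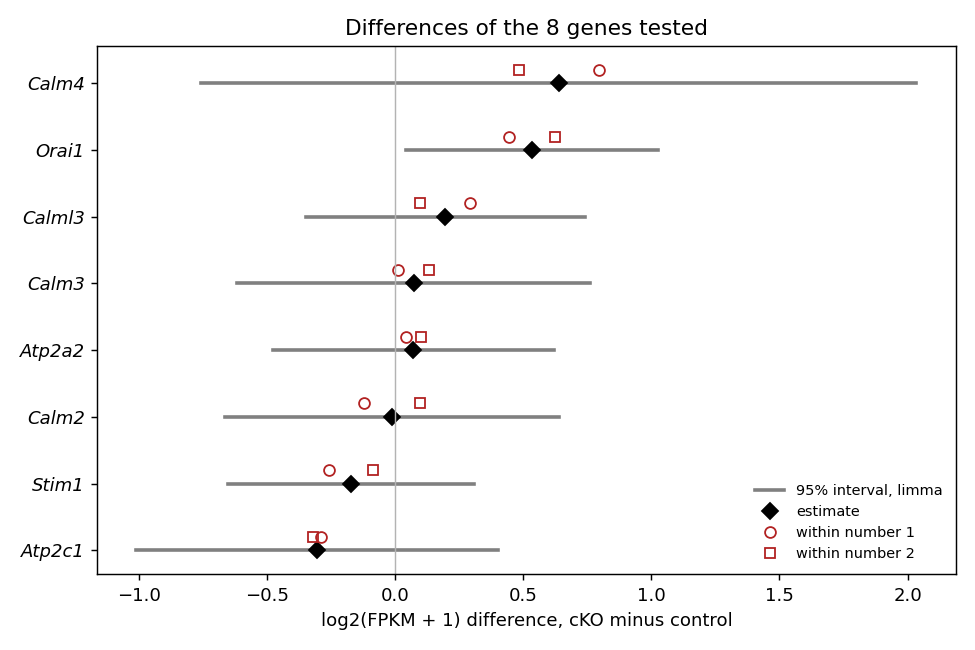
log2(FPKM + 1) difference, cKO minus control, of the 8 genes tested, as limma's estimate (diamonds) with its 95% interval (lines) and as the difference within each replicate number (open symbols, set slightly above). The intervals include 0 for every gene except Orai1 (0.04 to 1.03).

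Calm4 is a calmodulin-like gene of mouse skin whose product appears in differentiating keratinocytes. It lies on chromosome 13 (GRCm38, 3837757 to 3838673, ENSMUSG00000033765) and has a single transcript of 1 exon. Its level was 3015 and 3203 FPKM in cKO libraries 1 and 2, against 1737 and 2291 in control libraries 1 and 2. Both cKO libraries were thus above both controls, and about 27448 to 74753 recovered reads stood behind each value. The mean was 3109 ± 132 in cKO and 2014 ± 392 in control (SD, n = 2 libraries each), a ratio of 1.54. The log2 difference was 0.64 ± 0.57 (SE; 95% interval -0.76 to 2.03; limma adjusted p = 0.959), with 0.80 within number 1 and 0.48 within number 2. Limma's SE also draws on the spread of other genes of like level, so the interval is not Calm4's own spread alone. On the log2 scale, number 2 stood above number 1 by 0.09 in cKO and by 0.40 in control. By FPKM, Calm4 ranked 13 and 11 among all symbols in cKO libraries 1 and 2, and 21 and 15 in control.

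The level of Calm4 was also set against genes of keratinocyte differentiation. Relative to Krtdap, a keratinocyte differentiation gene of similar abundance, Calm4 stood at 0.752 and 0.886 in cKO and at 0.488 and 0.639 in control, higher in both cKO libraries. Its ratio to the suprabasal keratin gene Krt10 was 0.248 and 0.515 in cKO and 0.113 and 0.426 in control, where the groups overlapped. These ratios were not tested. Basal keratinocyte markers (4 genes) summed to 2073 and 3311 FPKM in cKO and to 3246 and 4072 in control, and granular markers (4 genes) to 3605 and 2150 in cKO and to 4453 and 2726 in control. Both sums were lower in cKO within each number, and their part in the level of Calm4 was not tested. The granular sum was mostly Flg, at 3187 and 1822 FPKM in cKO and 4128 and 2455 in control. The other granular markers did not follow it: Tgm3 was higher in both cKO libraries, and Lor (125 and 128 in cKO, 105 and 134 in control) and Ivl (181 and 76.5 in cKO, 171 and 90.1 in control) were higher in cKO in number 1 and lower in number 2.

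Calml3, a calmodulin-like gene of epithelia, lies on the other strand of the same region (chromosome 13, 3802896 to 3804316, ENSMUSG00000063130) and also has 1 exon. It measured 89.5 and 75.9 FPKM in cKO libraries 1 and 2, against 72.9 and 70.8 in control. The libraries did not overlap, but the gap between cKO 2 and control 1 was small beside the distance between the cKO libraries. The log2 difference was 0.20 ± 0.22 (95% interval -0.35 to 0.74; limma adjusted p = 0.959). It came to 0.08 without cKO replicate 1 and to 0.31 without cKO replicate 2. Calm5 (chromosome 13, 3854173 to 3854761), a skin calmodulin-like gene that is not among the 9, measured 115 and 89.3 FPKM in cKO and 50.1 and 51.7 in control. This was a ratio of 2.01 and a log2 difference of 0.98 ± 0.23 (limma unadjusted p = 0.00613, adjusted p = 0.959). With the replicate number as a block it passed (limma adjusted p = 0.00648), although the labels do not say that the numbers pair libraries. All 3 of these neighbouring genes have 1 exon in their main transcript and had both cKO libraries above both controls. Calm5 shares a stretch of 69 identical bases with Calm4, which was far more abundant (mean 2561 FPKM, beside 76.5 for Calm5). Reads of Calm4 lying wholly inside that stretch could add to the value of Calm5, and their part was not tested. Over all protein-coding genes tested, the median log2 difference was 0.10 for 366 genes of 1 exon, 0.11 for 3151 genes of 2 to 5 exons, -0.03 for 6753 genes of 6 to 20 exons and -0.15 for 1435 genes of over 20 exons. Both cKO libraries lay above both controls for 20.2% of the genes of 1 exon, 26.3% of those of 2 to 5 exons, 15.5% of those of 6 to 20 and 8.15% of those of over 20. The part of exon number in the values of the 3 neighbours was not tested.

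Calm2 (chromosome 17, 87433412 to 87446935, ENSMUSG00000036438) was the most abundant of the 9 after Calm4. It measured 121 and 160 FPKM in cKO libraries 1 and 2, against 132 and 150 in control. The control values lay inside the cKO range, and the means were 141 ± 27.5 in cKO and 141 ± 12.6 in control. Its log2 difference was -0.01 ± 0.26, and the 95% interval of -0.66 to 0.64 does not exclude changes of that size in either direction. Leaving out cKO replicate 1 turned it to 0.19, and leaving out control replicate 2 turned it to 0.08. Transcript Calm2-201 held between 98.4% and 99.4% of the gene's FPKM in the 4 libraries, the rest being transcripts annotated as retained introns.

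Calm3 (chromosome 7, 16915379 to 16924114, ENSMUSG00000019370) measured 36.2 and 52.8 FPKM in cKO libraries 1 and 2, against 35.9 and 48.0 in control. The values followed the replicate number more than the genotype, being higher in number 2 by 0.53 on the log2 scale in cKO and by 0.41 in control. The difference between genotypes was 0.07 ± 0.28 (95% interval -0.62 to 0.76; limma adjusted p = 0.985). It turned to -0.19 without cKO replicate 2 and to -0.13 without control replicate 1.

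Orai1 encodes the pore of the store-operated calcium channel and lies on chromosome 5 (123015074 to 123030456, ENSMUSG00000049686). It measured 12.9 and 14.5 FPKM in cKO libraries 1 and 2, against 9.24 and 9.08 in control. Both cKO libraries were above both controls, with a mean of 13.7 ± 1.12 in cKO and 9.16 ± 0.113 in control and a ratio of 1.5. The log2 difference was 0.53 ± 0.20 (95% interval 0.04 to 1.03), with 0.45 within number 1 and 0.62 within number 2. It had the smallest unadjusted p of the 8 genes (limma, 0.038) and did not pass after adjustment (0.959). About 268 to 590 recovered reads stood behind each value.

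The transcripts of Orai1 differed in how they moved. Orai1-201 (3 exons) was listed at 5.29 and 9.16 FPKM in cKO and at 3.23 and 3.60 in control, so both cKO libraries were higher. Orai1-202 (2 exons) was listed at 7.14 and 4.8 in cKO and at 5.38 and 4.69 in control, where the groups overlapped. Both transcripts are annotated with a coding length of 915 bases. With the most abundant transcript alone, Orai1-202, the log2 difference of the gene came to 0.19 in place of 0.53. Reads that match both transcripts had to be divided between them by a method that is not given in the sources used here.

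Stim1, the calcium sensor of the endoplasmic reticulum (chromosome 7, 102267806 to 102437319, ENSMUSG00000030987), had a single transcript in the table. It measured 22.1 and 23.9 FPKM in cKO libraries 1 and 2, against 26.6 and 25.5 in control. Both cKO libraries were below both controls, by a small margin. The means were 23.0 ± 1.29 in cKO and 26.1 ± 0.813 in control, and the log2 difference was -0.17 ± 0.19 (95% interval -0.65 to 0.31; limma adjusted p = 0.959). The ratio of Orai1 to Stim1 was 0.585 and 0.607 in cKO and 0.347 and 0.356 in control; it was not tested. Leukocytes also express both genes, and the leukocyte marker sum was lower in both cKO libraries than in both controls; its part in these values was not tested.

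Atp2a2 encodes SERCA2, which pumps calcium into the endoplasmic reticulum, and lies on chromosome 5 (122453513 to 122502225, ENSMUSG00000029467). Summed over 5 transcripts it measured 76.9 and 68.3 FPKM in cKO libraries 1 and 2, against 74.5 and 63.7 in control. The groups overlapped and the log2 difference was 0.07 ± 0.22 (95% interval -0.48 to 0.62; limma adjusted p = 0.979). Its sign changed when a single library was left out, with -0.01 without cKO replicate 1 and -0.04 without control replicate 2.

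Below the sum, the transcripts of Atp2a2 did not move alike. Atp2a2-201, annotated with 1044 codons, was listed at 60.5 and 59.0 FPKM in cKO and at 49.1 and 50.5 in control, and both cKO libraries were higher. It held 78.6% and 86.4% of the gene's FPKM in cKO libraries 1 and 2, against 65.9% and 79.3% in control. Atp2a2-203 is annotated as a target of nonsense-mediated decay, also with 1044 codons. It was listed at 12.6 and 7.56 in cKO and at 17.7 and 10.5 in control, lower in cKO within each number although the groups overlapped. Atp2a2-202, with the shorter coding part of 998 codons, was listed at 2.01 and 0.70 in cKO and at 4.16 and 1.28 in control. SERCA2 is known to occur as a shorter form of heart and slow muscle and a longer form of most other cells. In a fit with the most abundant transcript of each gene, Atp2a2-201 had a log2 difference of 0.26 (limma adjusted p = 0.981). Over all genes, retained-intron transcripts made up 4.01% and 2.28% of FPKM in cKO libraries 1 and 2, and 4.66% and 2.83% in control, a pattern of the whole libraries that runs the same way as the minor transcripts of Atp2a2; its part was not tested.

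Atp2c1 encodes SPCA1, the calcium and manganese pump of the Golgi apparatus (chromosome 9, 105403539 to 105527319, ENSMUSG00000032570). Summed over its 22 transcripts it measured 41.0 and 28.3 FPKM in cKO libraries 1 and 2, against 50.3 and 35.6 in control. The groups overlapped, since the libraries numbered 2 were lower in both genotypes, but cKO was below the control of the same number by 0.29 and 0.32 on the log2 scale. The pooled difference was -0.30 ± 0.29 (95% interval -1.01 to 0.40; limma adjusted p = 0.959). Leaving out cKO replicate 2 brought it to -0.04 and leaving out control replicate 1 to -0.06. With cKO replicate 1 left out it was -0.56, and with control replicate 2 left out -0.55.

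The Atp2c1 difference depended on which transcripts were summed. Its most abundant transcript, Atp2c1-201 (28 exons), stood at 11.8 and 7.80 FPKM in cKO and at 9.25 and 10.1 in control, with a log2 difference of -0.003. Atp2c1-205, with a shorter coding part of 669 codons, was listed at 9.80 and 7.34 in cKO and at 9.99 and 6.15 in control. The groups overlapped for both. Atp2c1-203, which is annotated as non-coding and has 12 exons, was listed at 0 and 0.58 in cKO and at 4.47 and 5.98 in control. Atp2c1-210 was listed at 0 and 1.15 in cKO and at 1.20 and 3.39 in control. Together with Atp2c1-215 these were the transcripts with a mean of at least 1 FPKM whose groups did not overlap, all lower in cKO. The other Atp2c1 transcripts at that level overlapped, and no share over all transcripts was computed to set beside this. Atp2c1-215 is annotated as a retained intron. The share of such transcripts over the whole libraries was also lower in cKO within each number, and its part was not tested. Over transcripts annotated as protein coding alone the log2 difference of the gene was -0.13, as it was with limma-voom on recovered reads.

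**Figure D3:**
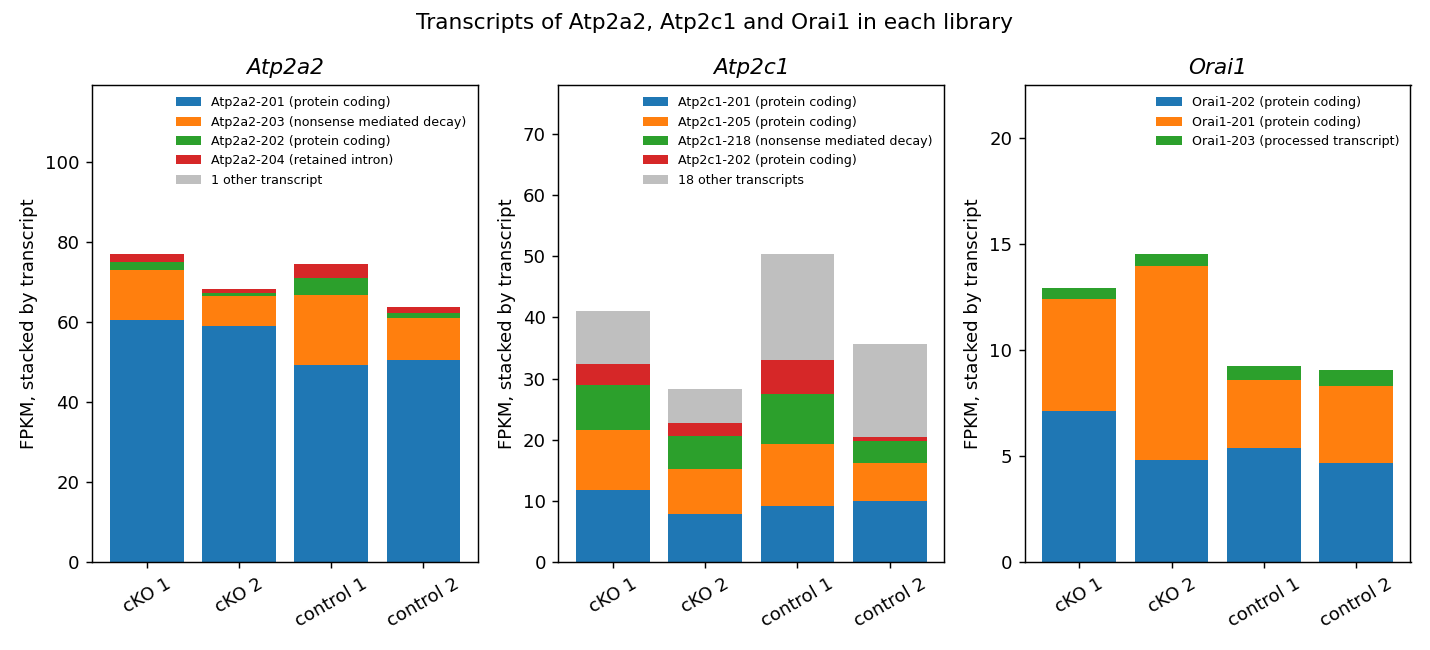
FPKM of Atp2a2, Atp2c1 and Orai1 in each library, stacked by transcript, with the 4 most abundant transcripts coloured and the rest in grey. The lowest segment of Atp2a2, transcript Atp2a2-201, reaches 60.5 and 59.0 in cKO and 49.1 and 50.5 in control, while the other segments are smaller in cKO than in the control of the same number.

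Casr, the receptor for extracellular calcium (chromosome 16, 36493696 to 36562141, ENSMUSG00000051980), was close to the limit of detection. It was listed at 0.04 and 0.15 FPKM in cKO libraries 1 and 2, against 0.11 and 0.22 in control, or about 3 and 14 recovered reads in cKO and 7 and 24 in control. Of its 4 transcripts, Casr-202 held the value in cKO 1, Casr-203 in cKO 2 and control 1, and Casr-201 in control 2. A difference between genotypes was not detectable at this depth.

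The genes whose profile over the 4 libraries lay closest to that of Calm4 were sought among 7124 tested genes with a mean of at least 10 FPKM, by Euclidean distance between centred log2 values. They were Mkks (distance 0.06), Abhd5 (0.07), Mrpl10 (0.10), Abhd14b (0.10) and Rrp15 (0.10). Mkks, a chaperonin-like gene, measured 16.5 and 17.9 FPKM in cKO and 8.96 and 11.8 in control. Abhd5, a lipase cofactor used in barrier lipid synthesis, measured 84.8 and 90.4 in cKO and 51.3 and 65.0 in control. Closest to Calml3 were Entpd5, Pex13, 2410002F23Rik, Zyg11b and Rbm28, at distances of 0.03 to 0.05. With 4 libraries, a short distance is a description of the values only.

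The sequence GGACT, a common form of the motif at which m6A is placed, was counted on the sense strand of the main transcripts. It was found in 90.7% of the main protein-coding transcripts of 11705 genes tested, with a median of 1.06 per kilobase. The transcript of Calm4 (917 bases) held 0, whereas 71% of the 824 transcripts of like length (0.8 to 1.25 times) held at least 1. Calml3 and Calm3 held 3 each, Calm2 held 2, Orai1-202 and Atp2a2-201 held 1 each, Stim1 held 3, Atp2c1-201 held 6 and Casr-203 held 9. Against the median of transcripts of like length, Calm4 (median 1), Atp2a2-201 (5), Stim1 (4) and Orai1-202 (2) lay below. Casr-203 (4), Atp2c1-201 (5), Calml3 (2) and Calm2 (1) lay above, and Calm3 (3) was equal to it. These counts describe letters in the transcripts and say nothing of methylation, which was not measured in these libraries.

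The rest of the calcium pathway was described with 9 lists holding 139 genes beside the 9, of which 109 passed the filter on low values. Of these 109, 0 passed limma's adjusted test and 5 had an unadjusted p under 0.05. Both cKO libraries lay above both controls for 18 (16.5%) and below for 12 (11%), beside 16.2% and 16.6% of all genes tested. Their median log2 difference was 0.02. By this measure the pathway genes stood close to the background. In the lists that follow, no gene passed the adjusted test (limma adjusted p between 0.959 and 0.995 for each gene named, apart from Pln and Sln, which did not pass the filter and were not tested).

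Among channels and their regulators, 14 of 19 genes were tested, with 2 above and 2 below without overlap, Orai1 and Stim1 among them, and a median of 0.09. Piezo1, a mechanically gated channel, measured 8.88 and 11.6 FPKM in cKO and 13.4 and 13.3 in control. P2rx4, an ATP-gated channel, measured 4.89 and 4.6 in cKO and 3.95 and 4.33 in control. Saraf, an inhibitor of store-operated entry, measured 43.4 and 51.0 in cKO and 46.9 and 49.8 in control, where the groups overlapped. Trpm7, a channel with a kinase domain, measured 33.0 and 16.6 in cKO and 37.5 and 25.2 in control, and its libraries differed more by number than by genotype.

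Of 15 pumps and exchangers 11 were tested, and 0 lay above and 2 below without overlap (median -0.09). These were Atp2b4, a plasma membrane calcium pump, at 50.9 and 41.0 FPKM in cKO and 55.2 and 51.2 in control, and Slc8a1, the sodium-calcium exchanger, at 2.20 and 1.78 in cKO and 3.38 and 2.64 in control. Of 22 genes for receptors, release channels and phospholipase C, 14 were tested, with 1 above, 1 below and a median of -0.01. The purinergic receptor gene P2ry1 measured 5.06 and 4.15 in cKO and 7.62 and 8.34 in control (log2 difference -0.68 ± 0.22; limma unadjusted p = 0.0212), and P2ry2 1.12 and 1.62 in cKO and 0.88 and 0.74 in control. P2ry2, the gene above, reached 1 FPKM only in the cKO libraries. It therefore passed the filter through the group where it was high, and its separation carries no weight. The most abundant members were Plcg1, a phospholipase C, at 56.0 and 48.0 in cKO and 62.3 and 55.3 in control, and Itpr2, an inositol trisphosphate receptor, at 54.6 and 37.0 in cKO and 56.2 and 29.1 in control.

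Calcium-binding proteins of the endoplasmic reticulum and SERCA regulators had 14 of 16 genes tested, with 3 above and 1 below (median 0.08). Pdia4, a disulfide isomerase, measured 84.9 and 101 FPKM in cKO and 68.1 and 61.9 in control, and the reticulocalbin gene Rcn1 72.4 and 66.6 in cKO and 57.8 and 54.3 in control. The related gene Rcn2 measured 13.5 and 14.6 in cKO and 12.8 and 12.9 in control. Rcn3 lay the other way, at 2.32 and 3.49 in cKO and 4.63 and 4.05 in control. Only about 52 and 58 recovered reads stood behind the cKO values of Rcn3, and 58 and 49 behind its control values. Calr, the calcium buffer calreticulin, measured 328 and 318 in cKO and 326 and 239 in control, and the chaperone gene Hspa5 245 and 191 in cKO and 219 and 133 in control; both overlapped. Phospholamban (Pln), the SERCA inhibitor of heart muscle, stayed at 0.42 FPKM or below, and sarcolipin (Sln) was listed at 0 in every library. For mitochondrial calcium uptake 10 of 11 genes were tested, with 4 above, 0 below and a median of 0.11. Micu2, a regulator of the calcium uniporter, measured 40.6 and 40.1 in cKO and 29.7 and 38.2 in control. Mcur1, another uniporter regulator, measured 10.9 and 9.99 in cKO and 8.52 and 9.18 in control, and Letm1, an inner membrane ion exchanger, 14.3 and 16.3 in cKO and 13.4 and 12.6 in control. The outer membrane channel genes Vdac1 and Vdac2 were the most abundant of the list and overlapped between groups, with Vdac1 at 89.4 and 115 in cKO and 91.1 and 110 in control.

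Calmodulin-dependent kinases, calcineurin and NFAT genes had 21 of 27 tested, with 2 above and 3 below (median -0.11). Below were Ppp3cb and Ppp3cc, catalytic subunits of calcineurin, and the transcription factor gene Nfatc2. Ppp3cb measured 19.95 and 17.6 FPKM in cKO and 25.7 and 23.3 in control, Ppp3cc 0.91 and 0.88 in cKO and 1.80 and 1.60 in control, and Nfatc2 2.99 and 2.00 in cKO and 4.81 and 3.71 in control. Ppp3cc reached 1 FPKM only in the control libraries, so it passed the filter through the group where it was high. About 30 to 75 recovered reads stood behind each of its values, and its separation carries no weight. Dapk1, a calmodulin-regulated kinase, measured 12.2 and 15.0 in cKO and 9.22 and 11.4 in control. The most abundant genes of the list were Eef2k, a calmodulin-dependent kinase of translation elongation, at 89.9 and 106 in cKO and 83.0 and 109 in control, and Nfat5, an osmotic stress factor, at 98.6 and 50.3 in cKO and 135 and 64.4 in control; both overlapped. Of 13 protein kinase C and diacylglycerol kinase genes 10 were tested, with 0 above and 2 below (median -0.10). Prkcb measured 1.95 and 2.87 in cKO and 4.08 and 4.8 in control (limma unadjusted p = 0.0366), and Prkcd, a kinase of differentiating keratinocytes, 39.9 and 39.7 in cKO and 48.9 and 40.7 in control. Prkci, an atypical protein kinase C, measured 50.1 and 37.3 in cKO and 45.1 and 48.8 in control, where the groups overlapped. Prkcb and Nfatc2 are also expressed in lymphocytes. The lymphocyte genes of the leukocyte list were low, with Cd3e at 1.40 and 2.93 FPKM in cKO and 4.65 and 4.97 in control, and Trdc at 1.96 and 2.05 in cKO and 3.95 and 4.40 in control. Both were lower in both cKO libraries, and their part in the values of Prkcb and Nfatc2 was not tested.

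The list with the highest median was that of calcium-dependent epidermal enzymes, at 0.28, with 15 of 16 genes tested. Without overlap, 6 lay above and 1 below, beside 16.2% and 16.6% of all genes tested, and the other 8 overlapped. The gene below was Padi2, at 0.74 and 1.16 FPKM in cKO and 1.39 and 1.48 in control. Tgm3, an enzyme that joins cornified envelope proteins, measured 112 and 123 FPKM in cKO and 49.9 and 47.9 in control (log2 difference 1.25 ± 0.21; limma unadjusted p = 0.00127). Capns2, a small calpain subunit gene of 1 exon, measured 292 and 310 in cKO and 140 and 160 in control (1.00 ± 0.26; limma unadjusted p = 0.00904). Tgm5, another transglutaminase, measured 33.1 and 29.0 in cKO and 27.4 and 19.8 in control, and Pla2g4e, a cytosolic phospholipase, 39.2 and 28.9 in cKO and 28.2 and 20.8 in control. The calmodulin family list had 8 of 9 genes tested, 3 above and 1 below, and a median of 0.08. Its gene below was Cetn3, a centrin of the centrosome, at 41.4 and 31.8 in cKO and 49.2 and 52.9 in control.

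**Figure D4:**
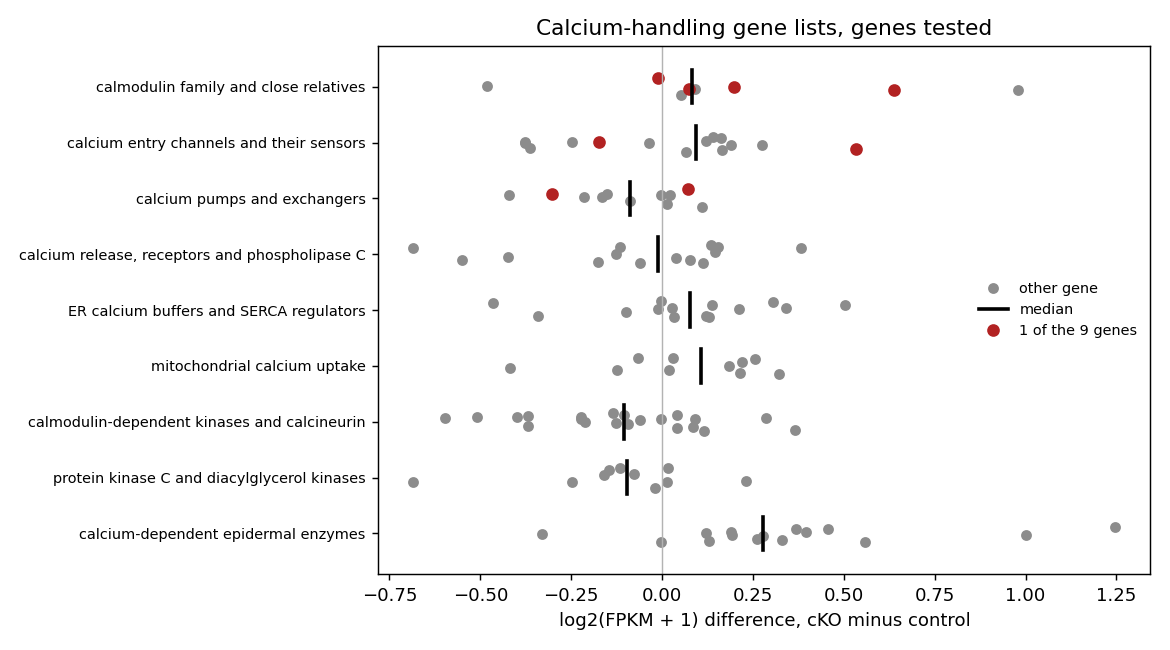
log2(FPKM + 1) difference, cKO minus control, of each tested gene (points) in 9 calcium-handling lists, with those of the 9 genes in red and the list median as a black bar; vertical scatter within a row has no meaning. Medians lie between -0.11 for calmodulin-dependent kinases and calcineurin and 0.28 for calcium-dependent epidermal enzymes.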

How the data were processed

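Total RNA was sequenced on an Illumina HiSeq after library preparation with a NEBNext Ultra kit, per the labels' protocols, which name poly(A) selection and ribosomal RNA removal as alternatives and do not say whether strand was kept. The submitters' processing notes list fastp, HISAT2, HTSeq and GRCm38, with no role or version. The authors deposited values for 110295 transcripts, taken as FPKM from the values: multiplied by transcript length and divided by 1000 they sum to between 1015550 and 1021998 per library. FPKM and RPKM cannot be told apart. Columns named WT were matched to the control libraries by number. Symbols turned into dates (162 rows) were restored by transcript ID from GENCODE M21, which held 98.04% of transcripts.

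FPKM were summed per symbol and log2(FPKM + 1) was tested with limma 3.58.1 (R 4.3.3), with a mean-variance trend, genotype as the only term, 2 residual degrees of freedom and a threshold of 0.05. To estimate depth, genes with a single transcript of 300 to 1000 bases were used; of their low values 95.3% to 96.3% were whole multiples of 1 read within 0.2 reads. Recovered reads cover counting error only. Overlap of groups was judged on FPKM and not on recovered reads, which can order the libraries differently for genes of several transcripts. Named genes were the 9, up to 4 genes per list with the largest differences without overlap, and the 2 most abundant per list. Padi2, Pln, Sln and ratios between genes were added after values were seen. The 9 genes and the lists were chosen with earlier results of these data known. Alternatives were scaling, pseudocount, filters, limma-voom, the replicate number as a block, transcript choice and leaving out each library. The fit was tested on simulated data. Some genes of the lists are counted but not reported by name here. Python 3.11.15, pandas 2.3.3, numpy 2.4.6, Biopython 1.88 and matplotlib 3.10.9 were used.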

Additional observations from a re-analysis of the deposited data

How the results depend on the processing

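Over all genes, limma called 0 under median-ratio scaling, no filter, a pseudocount of 0.1, equal column sums, a mean of at least 5 FPKM, limma-voom on recovered reads and protein-coding transcripts alone. Without 1 library it called between 9 and 71, with 1 library in a group assumed to vary like the other group. With the replicate number as a block it called 900 (6.51%). The labels do not say that the numbers pair libraries, which share only a number: deviations from group means correlated at 0.722 between same-numbered libraries over 13817 genes. The cause of the higher number of calls was not tested. Under the block 0 of the 8 genes passed (Calm4 adjusted p = 0.0573, Orai1 0.0564) and Calm5 did (0.00648). Of the 8 genes 0 passed under any alternative.

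Calm4 lay between 0.439 and 0.839 and Orai1 between 0.456 and 0.612 without 1 library, Calml3 between 0.079 and 0.314, Stim1 between -0.228 and -0.118, and Atp2c1 between -0.563 and -0.044. The sign changed for Calm2 (-0.209 to 0.189), Calm3 (-0.194 to 0.339) and Atp2a2 (-0.04 to 0.184), whose main values were near 0. Under the other alternatives no sign changed. Depth limits Casr, at 3 to 24 recovered reads per library.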
